A study of Mus musculus with 6 samples.

Results

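Mouse peritoneal macrophages given the compound SGA360 before lipopolysaccharide (LPS) were compared with macrophages given LPS alone, gene by gene, by RNA sequencing. The comparison used the 4 of 6 libraries whose labels name these treatments, 2 per group. All cells came from wild-type male C57BL6/J mice aged 6 to 8 weeks and were grown as primary cultures. The LPS group received 10 ng/ml LPS for 4 h, and the SGA360+LPS group received 10 µM SGA360 for 1 h followed by the same LPS treatment. A vehicle group of 2 libraries, with no LPS and harvested at 5 h, gave the resting level of each gene and did not enter the fit. No vehicle pretreatment is named for the cells given LPS alone, so the solvent or handling of the pretreatment and SGA360 itself cannot be told apart. The labels also leave unstated whether paired libraries were made from different animals or cultures. The p-values therefore rest on the spread among these samples alone, which may be technical.

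LPS is the outer membrane glycolipid of Gram-negative bacteria. It is sensed by the receptor TLR4 with its co-receptor CD14 and drives, through NF-kB and AP-1, the transcription of cytokine, chemokine and prostaglandin synthesis genes, and through a second adaptor branch and interferon beta, a set of antiviral genes. The aryl hydrocarbon receptor (AHR) is a ligand-activated transcription factor that binds a short core sequence in genes such as Cyp1a1 and Cyp1b1. SGA360 belongs to the selective AHR modulators, ligands described as dampening inflammatory genes through the receptor without driving the classical drug-metabolism targets.

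Levels are given as CPM, the usual scaling of counts to a common library size. The 4 libraries held between 7726973 and 9529817 counts, and 12282 to 12643 genes had a count in each. The ribosomal transcript Rn45s took 0.22% to 0.682% of the counts of these libraries, more in replicate 1 than in replicate 2 of both groups. In the vehicle pair it took 4.92% and 0.684%, and 10001 genes had a count in vehicle replicate 1. Summed levels of the macrophage identity genes were 29973 and 34343 CPM with LPS alone and 29038 and 32963 CPM after SGA360, with Itgam, Trem2, Cebpa and Cebpb at 0. Fibroblast markers summed to 5010 and 4705 CPM with LPS alone and 5516 and 5042 CPM after SGA360, and 8 of 8 tested members lay above 0 (median log2 fold change 0.09). Mesothelial markers summed to 419 and 412 CPM against 401 and 425 CPM, and neutrophil markers to 20.1 and 21.0 against 15.3 and 17.5 CPM, with S100a9 and Ly6g at 0. Mast cell markers summed to 108 and 106 CPM against 90.4 and 100.5 CPM, with Kit at 0, and 6 of 6 tested members lay below 0 (median -0.15). The part of these cells in the results was not tested. Itgam, Trem2, Cebpa, Cebpb, S100a9 and Kit have several transcript rows in the deposited counts. That class of symbols held few counts as a whole, so no absence is read from their 0.

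With SGA360 pretreatment a small group of genes fell, most of them encoding secreted inflammatory mediators, and for each the vehicle level was below the LPS level. The 11 genes that fell encode the cytokines interleukin 1 beta (Il1b), interleukin 1 alpha (Il1a) and the p40 subunit of interleukin 12 (Il12b), the neutrophil-attracting chemokines Cxcl1, Cxcl2 and Cxcl3, the macrophage inflammatory chemokines Ccl3 and Ccl4, the inducible cyclooxygenase (Ptgs2), the early response protein Ier3 and the cytochrome P450 Cyp1b1. Their levels with SGA360+LPS were between 48.6% (Il1b) and 75.6% (Cxcl3) of the levels with LPS alone. Mfsd12, which encodes a transporter of lysosome-related organelles, was the 1 gene that rose. In bulk RNA, fewer cells of a type and less RNA per cell cannot be told apart.

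A gene counted as called at a Benjamini-Hochberg adjusted p under 0.05 in edgeR's quasi-likelihood test, fitted to 9094 genes. The 12 genes are 0.132% of the genes tested, with 0.121% lower and 0.011% higher. An unadjusted p under 0.05 was reached by 821 genes (9.03%), of which 437 were lower (4.81%) and 384 higher (4.22%). In the 12 called genes the 2 libraries of each group did not overlap. The groups were likewise separated for 19.6% of all genes tested on the lower side and 20% on the higher side. With 1 library left out the count of called genes was 111 without LPS replicate 1, 64 without LPS replicate 2, 21 without SGA360+LPS replicate 1 and 54 without SGA360+LPS replicate 2. Of the 12 genes, 12, 12, 11 and 11 were called in these 4 fits. In each of them the prior degrees of freedom, which set how far the spread of a gene is drawn to the common trend, went from 11.6 to infinite, and the cause of the higher counts was not tested. In 1 model of all 6 libraries, 7 genes were called, all of them lower.

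**Figure D1:**
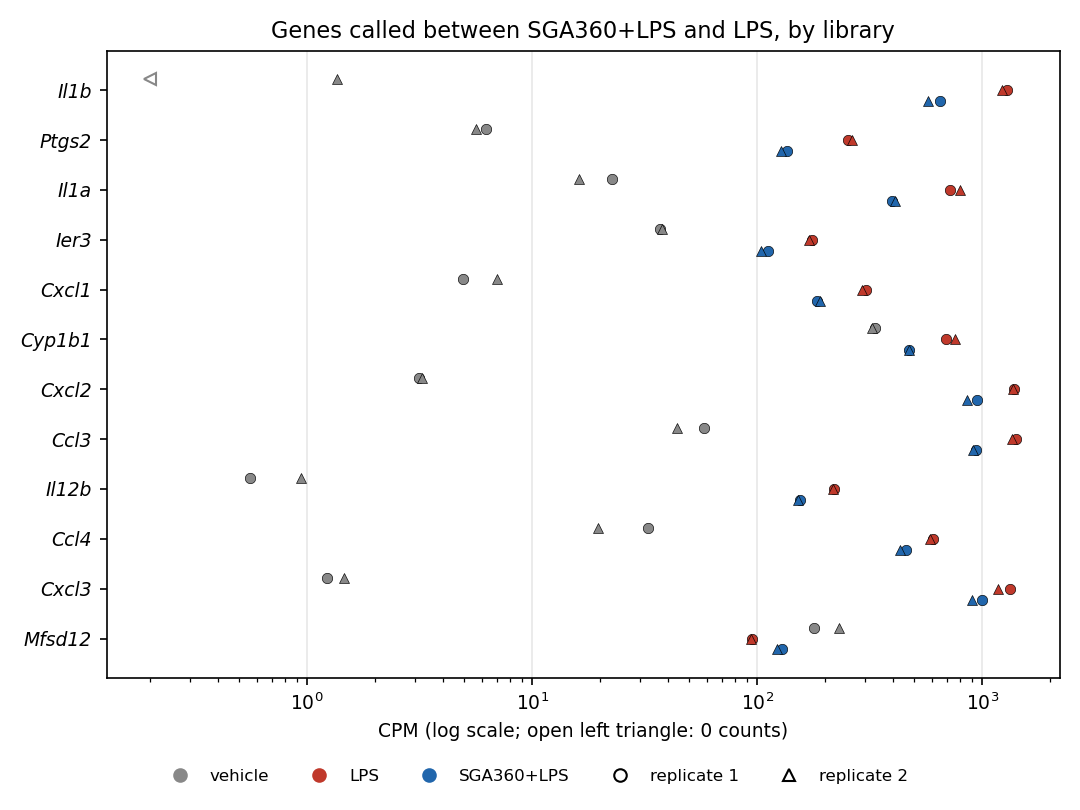
Level of each of the 12 called genes in every library, in CPM on a log axis. Each point is 1 library of the vehicle, LPS or SGA360+LPS group, and for Mfsd12 the LPS libraries are the lowest of the 3 groups while for the other 11 genes the SGA360+LPS libraries lie between vehicle and LPS.

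The stretches upstream of the start sites of 7 of these genes are shown first, because 3 of the chemokine genes carry the same NF-kB element there and because Cyp1b1 is an AHR target. They are the 120 bases before the RefSeq start site (positions -120 to -1, build GRCm38.p6, the mm10 build of the counts), written 5′ to 3′ on the strand of the gene. Capitals mark matches, on either strand, to the NF-kB consensus, the AHR core GCGTG, the AP-1 element TGANTCA, the CEBP element TTGCNNAA or the TATA box TATAAA. The windows are chr5:90891125-90891244, chr5:90903779-90903898 and chr5:90785981-90786100 on the plus strand for Cxcl1, Cxcl2 and Cxcl3, chr2:129371140-129371259 and chr2:129309973-129310092 on the minus strand for Il1b and Il1a, chr1:150099911-150100030 on the plus strand for Ptgs2, and chr17:79715062-79715181 on the minus strand for Cyp1b1. The Cyp1b1 start site lies 20 bases from the end of the deposited transcript, and the start sites of the other 6 match it. Ccl3, Ier3, Il12b and Mfsd12 were also scanned and are not shown.
Cxcl1: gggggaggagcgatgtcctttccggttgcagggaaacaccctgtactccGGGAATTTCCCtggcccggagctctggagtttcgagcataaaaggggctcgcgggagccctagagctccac
Cxcl2: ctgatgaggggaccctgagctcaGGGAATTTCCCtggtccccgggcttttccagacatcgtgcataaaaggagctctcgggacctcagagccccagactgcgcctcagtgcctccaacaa
Cxcl3: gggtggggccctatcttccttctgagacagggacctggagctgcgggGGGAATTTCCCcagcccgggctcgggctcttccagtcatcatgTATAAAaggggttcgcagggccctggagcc
Il1b: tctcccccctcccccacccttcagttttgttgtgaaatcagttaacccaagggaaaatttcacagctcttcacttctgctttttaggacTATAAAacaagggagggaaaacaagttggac
Il1a: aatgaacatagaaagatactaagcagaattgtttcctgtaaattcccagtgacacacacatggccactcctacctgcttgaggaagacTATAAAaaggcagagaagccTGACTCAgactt
Ptgs2: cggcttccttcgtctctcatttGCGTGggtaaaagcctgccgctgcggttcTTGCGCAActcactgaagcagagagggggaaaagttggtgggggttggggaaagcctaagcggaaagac
Cyp1b1: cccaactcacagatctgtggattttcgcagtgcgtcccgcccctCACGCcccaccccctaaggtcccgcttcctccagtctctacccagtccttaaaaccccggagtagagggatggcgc

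The element GGGAATTTCC began at position -71 in Cxcl1, -97 in Cxcl2 and -73 in Cxcl3, and was matched on both strands as 1 overlapping site. Over the full RefSeq windows of 300 bases (250 before and 50 from the start), the NF-kB consensus was found in 5 of the 10 genes that fell and have a window, namely Cxcl1, Cxcl2, Cxcl3, Ier3 (at -92) and Cyp1b1 (at -188), against 8.46% of all 32851 windows. Ccl4 had no window, and the windows of Ccl3 and Il12b held no match to any of the elements searched. The AHR core was found in 3 of the 10, Cyp1b1, Ptgs2 and Cxcl2, against 32.4% of all windows. Matches to AP-1 (Il1a; 7.81% of all windows) and CEBP (Ptgs2; 10.8%) occurred in 1 gene each, and the TATA box in Il1a, Il1b and Cxcl3 (13.6%). The CRE element TGACGTCA (1.79%) and the interferon-stimulated response element (3.44%) were found in 0 of the 10. Of the uncalled genes also scanned and with a window, Cxcl10 matched the NF-kB consensus (from -159, -104 and -103), as did Ifit2 (from -247). Rsad2 and Saa3 did not. Among these uncalled genes the AHR core was found in Rsad2 (from -31) and Cxcl10 (from -222). AP-1 was likewise matched in Rsad2 (from -87) and Cxcl10 (from -74). The interferon-stimulated response element was found in Rsad2 (from -120), Saa3 (from -125) and Cxcl10 (from -213). Saa3 also matched CEBP (from -99), and Rsad2 the TATA box (from -10). Mfsd12, which rose, held the AHR core (from -64 and -8). Its RefSeq start site lies 79 bases from the 5′ end of the deposited transcript. The percentages cover all RefSeq windows and not only those of genes tested here or of genes higher with LPS than in vehicle. Cxcl1, Cxcl2 and Cxcl3 lie in the same cluster with the same element, so their matches are not separate observations. A match describes the letters in the window and does not show binding.

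Both interleukin 1 genes fell. Il1b, which encodes the secreted fever-inducing cytokine interleukin 1 beta, stood at 1296 and 1224 CPM in LPS replicates 1 and 2 and at 653 and 572 CPM in SGA360+LPS replicates 1 and 2. Both SGA360+LPS libraries were far below both LPS libraries, and the vehicle libraries read 0 and 1.35 CPM. The log2 fold change was -1.04 (SE 0.07, 95% interval -1.19 to -0.89; adjusted p = 4.17e-06 by edgeR's quasi-likelihood test). Il1a, whose product interleukin 1 alpha signals through the same receptor, went from 718 and 793 CPM to 397 and 411 CPM, with 22.7 and 16.2 CPM in vehicle. Here too the groups were apart, with a log2 change of -0.90 (SE 0.06, interval -1.04 to -0.77; adjusted p = 4.19e-06).

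Il12b, encoding the p40 subunit that interleukin 12 shares with interleukin 23, read 219 and 217 CPM with LPS alone and 155 and 152 CPM after SGA360, against 0.558 and 0.935 CPM in vehicle. The replicates of each group differed far less than the groups did, and the log2 fold change was -0.51 (SE 0.06; adjusted p = 0.00154). In the model of all 6 libraries its adjusted p was 0.0998, and over the alternatives tried it ran from 2.36e-20 to 0.165. Il23a, encoding the p19 subunit that pairs with p40 in interleukin 23, had 14 and 11 counts with LPS and 2 and 6 counts with SGA360+LPS, too few to be tested; it is outside the rule for named genes and was chosen after its counts were seen.

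Across the list of proinflammatory cytokines, 3 of 11 tested members fell and 0 rose, 7 of 11 were lower at an unadjusted p under 0.05, and the median log2 fold change was -0.51, against 0 over all genes tested. Csf3, the granulocyte colony-stimulating factor gene, was at 13.8 and 13 CPM with LPS alone and 6.85 and 9.06 CPM after SGA360 (log2 fold change -0.74, SE 0.18; adjusted p = 0.221). Il18, a further interleukin 1 family cytokine gene, was at 46.4 and 44.3 against 36.4 and 32.3 CPM (-0.40, SE 0.10; adjusted p = 0.264). Neither passed the test. The groups did not overlap in either, as for 19.6% of all genes tested on the lower side. Tnf was counted at only 1.01 to 2.13 CPM in these 4 libraries and Il6 at 1 count in each. Each has 2 transcript rows, a class of symbols that as a whole held few of the counts, and at these levels nothing is stated on either gene. Of the other genes given with values, Ms4a6c, St8sia4, Nfe2l2 and Slc20a1 also have 2 rows, and their values are uncertain for that reason.

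Of the chemokine genes that fell, those with the largest changes were Cxcl1 and Cxcl2, whose products recruit neutrophils through CXCR2. Cxcl1 was at 304 and 292 CPM with LPS alone and 185 and 190 CPM after SGA360 (vehicle 4.91 and 6.96 CPM), and fell by 0.67 on the log2 scale (SE 0.06; adjusted p = 0.000124). Cxcl2 was at 1391 and 1374 CPM and then 947 and 853 CPM (vehicle 3.13 and 3.22 CPM), and fell by 0.62 (SE 0.06; adjusted p = 0.000168). The libraries of both genes were separated by group. Cxcl3 was at 1333 and 1181 CPM with LPS alone and 998 and 904 CPM after SGA360 (vehicle 1.23 and 1.45 CPM), or a log2 change of -0.40 (SE 0.07; adjusted p = 0.0474). Its adjusted p was the highest of the 12, and its call was lost in 8 of 17 alternatives. These were the fits without SGA360+LPS replicate 2 (-0.34; adjusted p = 0.0502), with total counts (0.148) or upper quartile scaling (0.113), with a filter of 5 CPM (0.126), with symbols of 1 transcript row (0.0599) or each row by itself (0.0673), with all 6 libraries (0.412) and against a fold change of 1.2 (1). Over all alternatives the adjusted p ran from 2.47e-25 to 1.

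Ccl3 and Ccl4, both encoding secreted chemokines, also fell. Ccl3 went from 1420 and 1363 CPM to 943 and 912 CPM, or a log2 change of -0.59 (SE 0.06; adjusted p = 0.000163), with 58.0 and 43.9 CPM in vehicle. Ccl4 went from 602 and 583 CPM to 461 and 430 CPM, or a log2 change of -0.41 (SE 0.06; adjusted p = 0.00786), with 32.6 and 19.6 CPM in vehicle. In neither gene did the libraries of the groups overlap. In the model of all 6 libraries neither was called (adjusted p = 0.133 for Ccl3 and 1 for Ccl4).

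In all, 5 of 22 tested chemokine genes fell and 0 rose, 11 of 22 were lower at an unadjusted p under 0.05, and the median log2 fold change was -0.24. The other abundant chemokine genes were closer to their LPS level. Ccl5, a T cell and monocyte attractant, was at 912 and 927 CPM with LPS alone and 876 and 883 CPM after SGA360, and its 95% interval for the log2 fold change ran from -0.19 to 0.06. Ccl2, the main monocyte attractant, was at 584 and 568 against 522 and 525 CPM (-0.14, interval -0.26 to -0.02; adjusted p = 0.5). Cxcl10, an interferon-inducible attractant of T cells, was at 163 and 170 against 158 and 145 CPM (-0.13, interval -0.28 to 0.01; adjusted p = 0.58). These intervals hold no fall as large as that of Cxcl1 or Ccl3, and the differences between genes were not tested. Ccl9, a CCR1 ligand gene, was at 1571 and 1402 against 1302 and 1135 CPM (-0.29, SE 0.07, interval -0.45 to -0.13; adjusted p = 0.278). That interval holds falls as large as those of Cxcl3 and Ccl4, and DESeq2 called Ccl9 lower.

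**Figure D2:**
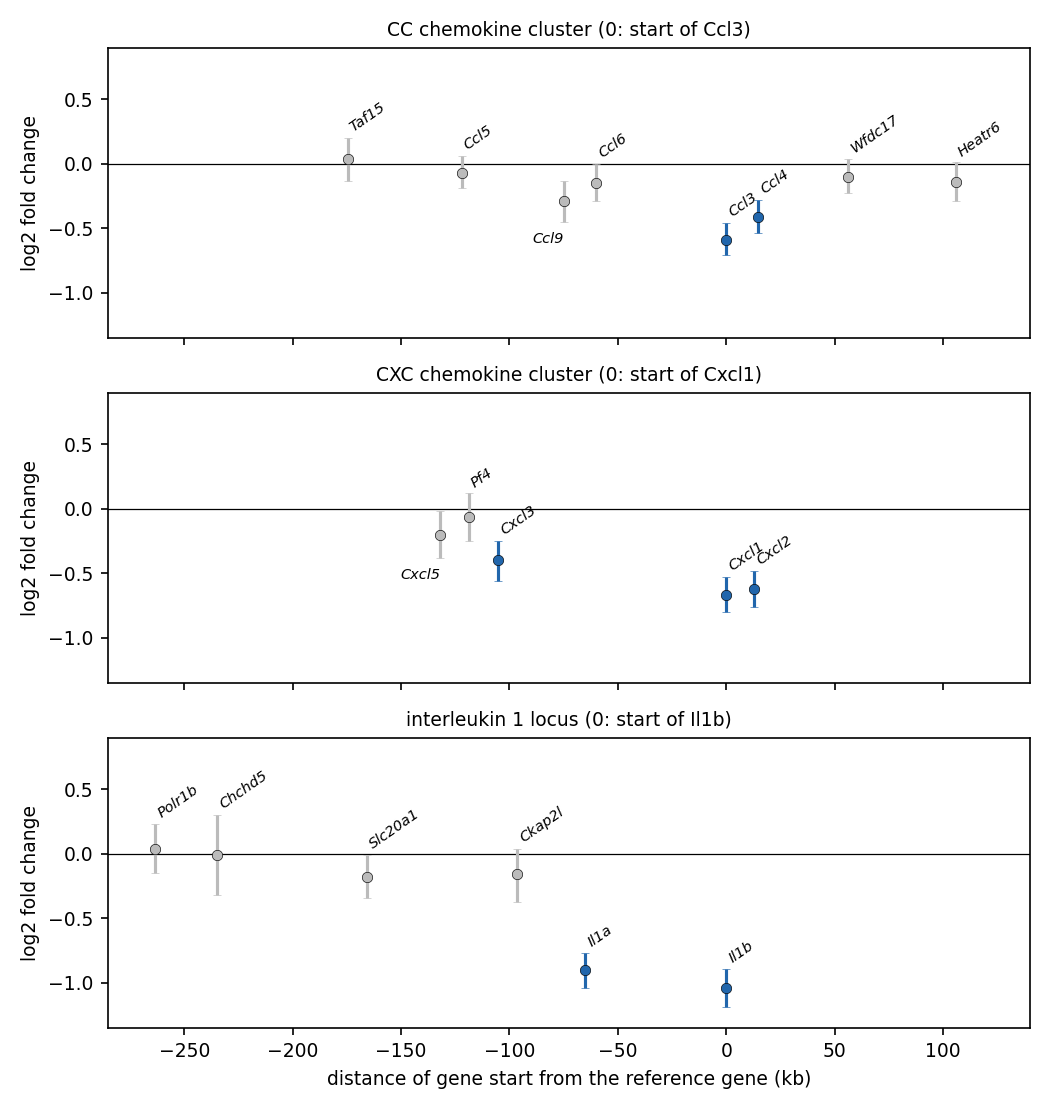
Log2 fold change, SGA360+LPS against LPS, of the genes around the 3 loci that hold 7 of the 11 genes that fell, by distance of the gene start from Ccl3, Cxcl1 or Il1b in kb, with 95% intervals. Blue points are called genes and grey points are not, so that Pf4, Ccl5 and Slc20a1 lie nearer 0 than the called genes beside them. Tested neighbours of low mean level are not drawn, such as Gm14023 (-0.70, mean 1.59 CPM) and Heatr9 (0.72, mean 1.69 CPM).

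Of the 11 genes that fell, 7 lie in 3 gene clusters. In mm10 coordinates of the deposited transcripts, Cxcl3 (NM_203320) spans chr5:90786101-90788093, Cxcl1 (NM_008176) chr5:90891245-90893115 and Cxcl2 (NM_009140) chr5:90903899-90905938, all on the plus strand, with 10784 bases between Cxcl1 and Cxcl2. Il1a (NM_010554) spans chr2:129299610-129309972 and Il1b (NM_008361) chr2:129364578-129371139, both on the minus strand and 54606 bases apart. Ccl3 (NM_011337, minus strand) spans chr11:83647843-83649378 and Ccl4 (NM_013652, plus strand) chr11:83662584-83664683, 13206 bases apart. Every one of these genes is annotated as protein-coding, and its count covers reads assigned to the exons of its transcript. The span of Il1b overlaps the antisense gene Il1bos and that of Il1a overlaps Gm14023. The strand setting was not given in the sources used here, and without it the reads of overlapping genes cannot be told apart.

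Neighbours in the same clusters, named here for their position after their values were seen, were not called. Cxcl5 stood at 79.6 and 72.5 CPM with LPS alone and 66.6 and 65.7 CPM after SGA360 (log2 fold change -0.20, SE 0.08; adjusted p = 0.5), and the platelet factor gene Pf4 at 277 and 224 against 238 and 241 CPM (-0.06, SE 0.08), with overlapping groups. Ccl6, between Ccl9 and Ccl3, stood at 964 and 1091 against 904 and 951 CPM (-0.15, SE 0.07; adjusted p = 0.535). Slc20a1, a phosphate transporter gene near Il1a, stood at 92.9 and 96.2 against 79.9 and 87.6 CPM (-0.18, SE 0.08; adjusted p = 0.525).

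Ptgs2, the gene of the inducible cyclooxygenase that makes the prostaglandin precursor, had the second largest fall among the called genes. It stood at 253 and 264 CPM with LPS alone and 136 and 128 CPM after SGA360, against 6.25 and 5.61 CPM in vehicle. The mean with SGA360+LPS was 51.0% of the mean with LPS, and the groups did not overlap. The log2 fold change was -0.97 (SE 0.07, interval -1.12 to -0.83; adjusted p = 4.17e-06), and in every one of 17 alternatives tried it stayed between -1.02 and -0.93. The gene (NM_011198) spans chr1:150100031-150108234 on the plus strand. Ptgs2os2, a noncoding gene 50809 bases away and chosen after its value was seen, was counted at 5.45 and 4.70 CPM with LPS alone and 2.54 and 2.57 CPM after SGA360 (-0.98, SE 0.28; adjusted p = 0.324).

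No other member of the prostaglandin and leukotriene pathway passed the test. Of 16 tested members 1 was called, 3 were lower and 2 higher at an unadjusted p under 0.05, and the median was -0.05. Ptges, the inducible terminal synthase of prostaglandin E2, was at 821 and 883 CPM with LPS alone and 772 and 820 CPM after SGA360 (-0.10, interval -0.23 to 0.03; adjusted p = 0.66). Ptges3, a cytosolic prostaglandin synthase that is also the p23 co-chaperone of the AHR complex, was at 256 and 286 against 238 and 237 CPM (-0.19, SE 0.07; adjusted p = 0.424). Ptger2, a prostaglandin E2 receptor gene, was at 8.50 and 8.52 against 10.8 and 12.2 CPM (0.43, SE 0.17; adjusted p = 0.473).

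Among AHR target genes, Cyp1b1 fell and no other tested member was called. Cyp1b1, which encodes an enzyme that oxidises polycyclic hydrocarbons and steroids, stood at 693 and 756 CPM with LPS alone, 472 and 474 CPM after SGA360 and 335 and 324 CPM in vehicle. The SGA360+LPS libraries thus lay between the other groups, and the log2 fold change was -0.62 (SE 0.06, interval -0.75 to -0.49; adjusted p = 0.000163). The gene (NM_009994) spans chr17:79706953-79715041 on the minus strand. Of 7 tested targets, 3 were lower and 0 higher at an unadjusted p under 0.05, with a median of -0.11. Lpcat2, a lysophospholipid acyltransferase gene, was at 242 and 245 against 212 and 208 CPM (-0.22, interval -0.35 to -0.09; adjusted p = 0.316).

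Tiparp, the ADP-ribosyltransferase gene that AHR ligands typically induce, was at 77.2 and 96.2 CPM with LPS alone and 77.4 and 91.8 CPM after SGA360, with overlapping groups. Its log2 fold change was -0.04 with an interval from -0.27 to 0.19 (adjusted p = 0.935), and it turned to 0.13 without LPS replicate 2 and to 0.07 without SGA360+LPS replicate 1. Nqo1, a quinone reductase gene, was at 6.11 and 9.50 against 6.98 and 7.83 CPM, a log2 fold change of -0.09 (interval -0.58 to 0.39) that turned to 0.28 without LPS replicate 2. Nfe2l2, encoding the antioxidant regulator NRF2, was at 777 and 814 against 698 and 742 CPM (-0.14, SE 0.06; adjusted p = 0.5). Cyp1a1, Ahrr and Ahr itself had 0 counts in all 4 libraries, and each has 2 transcript rows, so no statement is made on them.

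Ier3, an early response gene that NF-kB induces, was the 1 called member of both the NF-kB feedback list and the immediate early list. It stood at 174 and 170 CPM with LPS alone and 112 and 104 CPM after SGA360, against 36.9 and 37.6 CPM in vehicle, and the groups were separated. The log2 fold change was -0.68 (SE 0.07; adjusted p = 0.000168), and the gene (NM_133662) spans chr17:35821713-35822911 on the plus strand. Of 13 tested NF-kB genes 5 were lower and 0 higher at an unadjusted p under 0.05 (median -0.17). Nfkbia, encoding the inhibitor IkB alpha, was at 758 and 764 against 695 and 614 CPM (-0.22, interval -0.36 to -0.08; adjusted p = 0.35), and Tnip3 at 163 and 158 against 130 and 142 CPM (-0.24; adjusted p = 0.324).

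Of 16 tested AP-1 and immediate early genes, 6 were lower and 2 higher at an unadjusted p under 0.05 (median -0.12). Ier2 had a log2 fold change of -0.38 (adjusted p = 0.251) and the AP-1 subunit gene Fosl2 of -0.26 (adjusted p = 0.263). The list of mRNA decay and phosphatase feedback had 0 calls among 13, with 5 lower and 1 higher at an unadjusted p under 0.05 (median -0.18). In it, Socs3, a feedback inhibitor of cytokine signalling, stood at 717 and 663 CPM with LPS alone and 590 and 504 CPM after SGA360 (-0.34, SE 0.07; adjusted p = 0.209). Zfp36, encoding the mRNA-destabilising protein tristetraprolin, was at 188 and 181 against 162 and 156 CPM (-0.22, SE 0.06; adjusted p = 0.35).

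**Figure D3:**
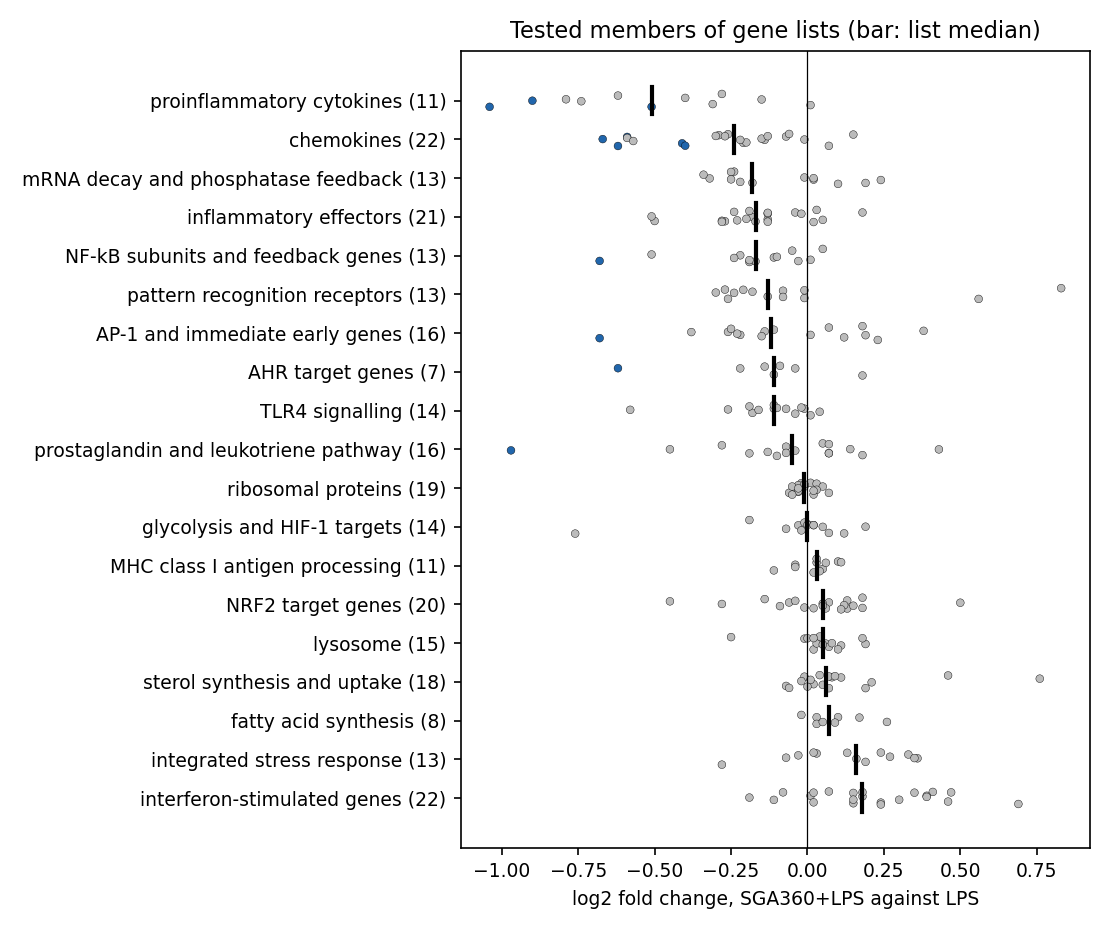
Log2 fold change of every tested member of 19 gene lists, SGA360+LPS against LPS, with 1 point per gene and the median of each list. Among the lists plotted, cytokines (median -0.51) and chemokines (-0.24) lie farthest below 0, interferon-stimulated genes (0.18) lie above it, and ribosomal protein genes are near it.

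The list of inflammatory effectors had 0 calls among 21 tested members, with 9 lower and 1 higher at an unadjusted p under 0.05 and a median of -0.17. Irg1, the gene of the itaconate-producing enzyme, was at 4478 and 4770 CPM with LPS alone and 4015 and 4166 CPM after SGA360 (-0.18, interval -0.30 to -0.05; adjusted p = 0.395). The acute-phase gene Saa3 was at 10243 and 9072 against 8646 and 7834 CPM (-0.23, interval -0.38 to -0.08; adjusted p = 0.346). In both genes the 2 LPS libraries were the higher ones, by less than the called genes. Slc7a11, encoding the cystine transporter, was at 593 and 695 against 493 and 566 CPM (-0.28, SE 0.08; adjusted p = 0.316).

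Receptor and sensor genes lay mostly below 0 without a call. Of 13 pattern recognition receptors 5 were lower and 1 higher at an unadjusted p under 0.05 (median -0.13), and of 14 TLR4 pathway genes 2 were lower and 0 higher (median -0.11). The inflammasome sensor gene Nlrp3 was at 643 and 706 CPM with LPS alone and 535 and 586 CPM after SGA360 (-0.27, SE 0.07; adjusted p = 0.242). Cd14, the LPS co-receptor gene, was at 1277 and 1366 against 1113 and 1091 CPM (-0.26, SE 0.06; adjusted p = 0.221). Myd88, the adaptor of TLR4, was at 220 and 245 against 214 and 203 CPM (-0.16, SE 0.07; adjusted p = 0.525). The 2 groups did not overlap in these 3 genes, as for 19.6% of all genes tested on the lower side.

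Of the uncalled genes on the lower side, the lowest p-values belonged to Samsn1, an adaptor gene of blood cells, and Ms4a6c, a membrane protein gene. Samsn1 was at 230 and 212 CPM with LPS alone and 177 and 161 CPM after SGA360 (-0.39, SE 0.07; adjusted p = 0.0662). Ms4a6c was at 225 and 244 against 174 and 189 CPM (-0.37, SE 0.07; adjusted p = 0.0662). Both were separated by group, like 19.6% of all genes tested on the lower side, and each was called in 6 of the alternatives tried. The sialyltransferase gene St8sia4 followed at 57.3 and 65.6 against 41.6 and 45.5 CPM (-0.50, SE 0.10; adjusted p = 0.0942), and the actin-binding thymosin gene Tmsb4x at 3465 and 3582 against 2963 and 2909 CPM (-0.26, SE 0.06; adjusted p = 0.145).

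Interferon-stimulated genes lay on the other side of 0, with 0 of 22 tested members called. Of these 22, 19 were above 0, and 8 were higher and 0 lower at an unadjusted p under 0.05, with a median log2 fold change of 0.18. Ifit2, an antiviral gene of the IFIT family, was at 110 and 117 CPM with LPS alone and 160 and 142 CPM after SGA360, against 4.13 and 8.94 CPM in vehicle (0.41, SE 0.07; adjusted p = 0.0637). Rsad2, encoding the antiviral enzyme viperin, was at 345 and 381 against 511 and 441 CPM (0.39, SE 0.08; adjusted p = 0.0928). The SGA360+LPS libraries were above both LPS libraries for Ifit2 and Rsad2, as for 20% of all genes tested.

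Oasl1 was at 126 and 148 CPM with LPS alone and 193 and 165 CPM after SGA360 (0.39, SE 0.09; adjusted p = 0.221), and Cmpk2, a mitochondrial nucleotide kinase gene, at 121 and 138 against 175 and 156 CPM (0.35, SE 0.08; adjusted p = 0.221). Ifit3 (0.47; adjusted p = 0.27) and the ubiquitin-like modifier gene Isg15 (0.24; adjusted p = 0.447) were named after their values were seen. In these 6 genes LPS replicate 1 was the lowest and SGA360+LPS replicate 1 the highest library. The median of the list was 0.10 without LPS replicate 1, 0.30 without LPS replicate 2, 0.12 without SGA360+LPS replicate 1 and 0.25 without SGA360+LPS replicate 2, so that it stayed above 0 while its size rested on replicate 1 of each group. In the same order 2, 8, 0 and 7 of the 22 genes were called higher, and the 7 genes Ifit1, Ifit2, Ifit3, Rsad2, Oasl1, Cmpk2 and Isg15 were among the 8 called without LPS replicate 2.

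Ifit1 showed the spread within a group: it was at 136 and 197 CPM with LPS alone and 184 and 210 CPM after SGA360, with overlapping groups (0.24, interval -0.03 to 0.50). The GTPase gene Gbp2 was at 649 and 708 against 632 and 655 CPM (-0.08, interval -0.21 to 0.05). MHC class I genes had 0 calls among 11, with 0 lower and 0 higher at an unadjusted p under 0.05 (median 0.03). B2m, the light chain of MHC class I, was at 2945 and 3084 against 2872 and 2979 CPM (-0.04, interval -0.17 to 0.08), with overlapping groups.

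**Figure D4:**
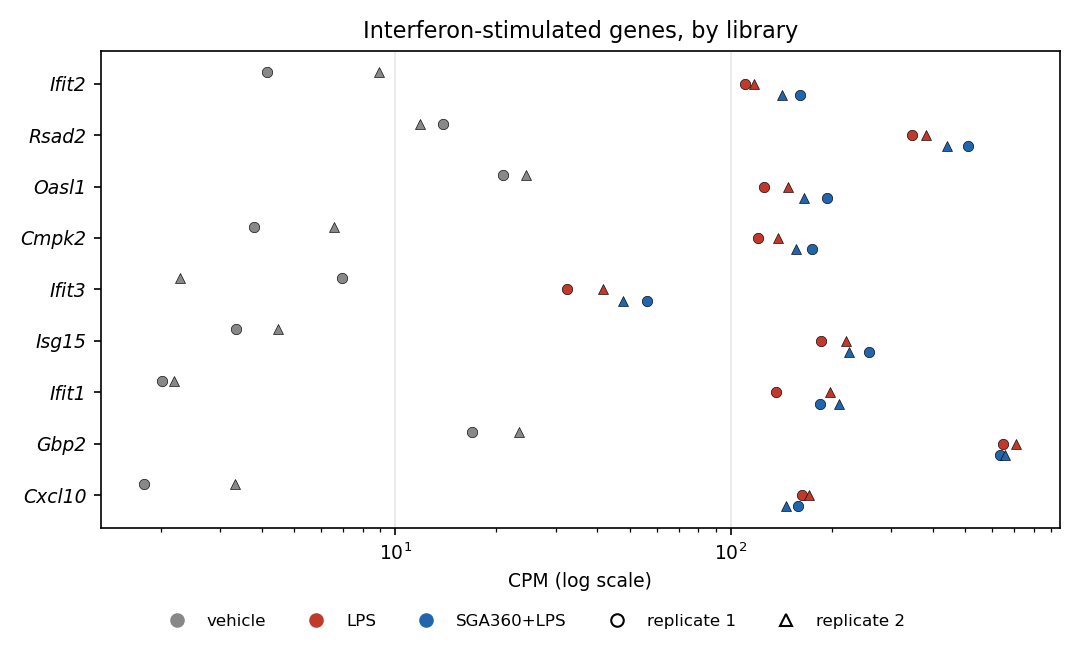
Level of interferon-stimulated genes in each of the vehicle, LPS and SGA360+LPS libraries, in CPM on a log axis, with 1 point per library. For Ifit2 and Rsad2 both SGA360+LPS libraries lie above both LPS libraries, while Ifit1 and Gbp2 overlap.

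Mfsd12 was at 95.1 and 94.0 CPM with LPS alone and 129 and 123 CPM after SGA360, and at 179 and 231 CPM in vehicle. The SGA360+LPS libraries lay above both LPS libraries and below both vehicle libraries. The log2 fold change was 0.41 (SE 0.07, interval 0.26 to 0.56; adjusted p = 0.0313). The call was lost in 3 alternatives. These were the fits without SGA360+LPS replicate 1 (0.37), with all 6 libraries and against a fold change of 1.2. DESeq2 gave the gene no adjusted p, and over the other alternatives the adjusted p ran from 5.55e-10 to 1. The gene (NM_028657) spans chr10:81357570-81364035 on the plus strand and overlaps 4930404N11Rik on the minus strand, named for this reason, which was at 88.5 and 74.3 against 96.3 and 94.2 CPM (0.23, SE 0.09; adjusted p = 0.459).

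Some uncalled genes on the higher side had vehicle levels above those of both LPS-treated groups, as Mfsd12 did. Tmem104 was at 75.7 and 72.7 CPM with LPS alone and 92.5 and 102 CPM after SGA360, with 232 and 279 CPM in vehicle (0.39, SE 0.08; adjusted p = 0.118). Plekhm1, a regulator of lysosome fusion, was at 161 and 165 against 196 and 208 CPM, with 381 and 367 CPM in vehicle (0.31, SE 0.06; adjusted p = 0.145). Tmem86a, a lysoplasmalogenase gene, was at 24.3 and 21.8 against 31.7 and 33.0 CPM, with 131 and 167 CPM in vehicle (0.49, SE 0.11; adjusted p = 0.221). In these genes the SGA360+LPS libraries lay between the other groups. The vehicle and SGA360+LPS values are each set against the same LPS libraries, so they are given only side by side.

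Fasn, the fatty acid synthase gene, was at 385 and 409 CPM with LPS alone and 474 and 476 CPM after SGA360 (0.26, SE 0.06; adjusted p = 0.221), and Por, the electron donor of cytochrome P450 enzymes, at 285 and 293 against 345 and 346 CPM (0.25, SE 0.06; adjusted p = 0.221). Both were separated by group, like 20% of all genes tested on the higher side. Fatty acid synthesis genes had 0 calls among 8, with 2 higher and 0 lower at an unadjusted p under 0.05 (median 0.07), and sterol synthesis genes 0 among 18, also with 2 higher and 0 lower (median 0.06). Lysosome genes had 0 calls among 15, with 2 higher and 0 lower (median 0.05).

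Stress response lists held no call. Of 13 tested integrated stress response genes 5 were higher and 1 lower at an unadjusted p under 0.05 (median 0.16). Phgdh, the first enzyme of serine synthesis, was at 243 and 237 CPM with LPS alone and 283 and 285 CPM after SGA360 (0.24, SE 0.06; adjusted p = 0.262). Aldh1l2, a mitochondrial folate enzyme gene, was at 38.5 and 39.9 against 52.1 and 47.8 CPM (0.35, SE 0.10; adjusted p = 0.309). Of 20 NRF2 target genes 6 were higher and 2 lower at that threshold (median 0.05). Slc7a11, given above with the inflammatory effectors, is a member of both lists and was among the lower genes (-0.28, SE 0.08). Hmox1, encoding heme oxygenase 1, was at 1253 and 1260 against 1356 and 1403 CPM (0.13, interval 0.01 to 0.26; adjusted p = 0.518), and Srxn1, encoding sulfiredoxin, at 554 and 568 against 624 and 647 CPM (0.18, SE 0.06; adjusted p = 0.395). Ribosomal protein genes, a list not tied to the treatment, had 0 of 19 lower or higher at an unadjusted p under 0.05 and a median of -0.01.

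**Figure D5:**
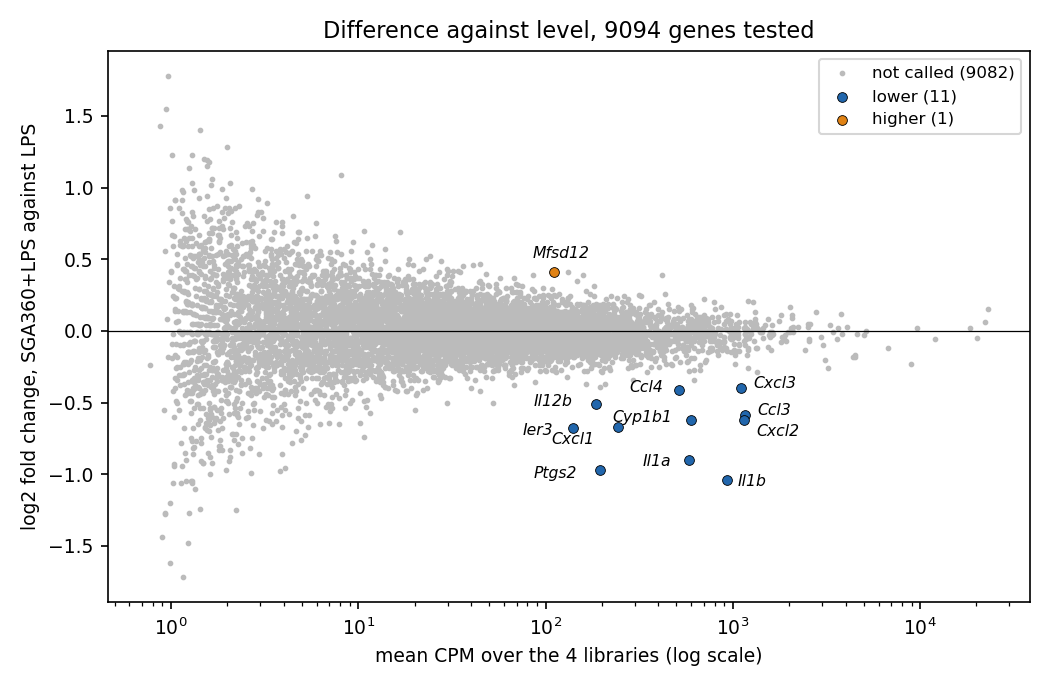
Log2 fold change, SGA360+LPS against LPS, of every tested gene against its mean level in CPM on a log axis, with the 12 called genes marked and named. Among the called genes the mean level is lowest for Mfsd12 (110 CPM), and the difference is largest for Il1b (-1.04).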

How the data were processed

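RNA of 6 libraries was measured, and the 4 of LPS and SGA360+LPS were compared. The authors deposited 1 table of whole-number counts per RefSeq transcript. Alignment and counting tools and build were HTSeq 0.5.4p3, TopHat2 2.0.13 and mm10, per the submitters' processing notes, with strand setting, annotation version and handling of shared reads not given in the sources used here. The exon length column, another deposited value, was only copied. Transcript rows (34751) were summed per symbol (24454). The 5639 symbols with several rows held 1.87% of all counts, so their values are uncertain.

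Genes were kept with filterByExpr (minimum count 10), TMM-scaled and fitted by the quasi-likelihood functions (glmQLFit, glmQLFTest) of edgeR 4.0.16 in R 4.3.3, two-sided, on the 4 libraries (2 residual degrees of freedom). Adjusted p-values are Benjamini-Hochberg over 9094 genes. CPM use the TMM factors of all 6 libraries. The common biological coefficient of variation was 0.054, against 0.0951 with the vehicle pair. Scripts were tested on simulated data. Replicates differed beyond sampling noise (mean chi-square per gene 5.92 for LPS and 3.98 for SGA360+LPS).

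Named genes are all called genes and, not each of them named, the 12 uncalled genes of lowest p on each side, up to 5 members of each list and a set of fixed genes; other genes with values are named as exceptions. The comparison, the lists and the genes were chosen with earlier results of these data known. Starts in the table are 1 base early and are given as start plus 1. Promoter windows are RefSeq's; 11 of 12 called genes had one. Alternatives covered scaling, the tool (limma-voom of limma 3.58.1, DESeq2 1.42.0), filters, transcript rows, thresholds, the replicate block and leaving out each library.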

Additional observations from a re-analysis of the deposited data

How the results depend on the processing

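The results recomputed under the alternatives were log2 fold changes of named genes, 1 per gene and alternative. Of these, 1337 kept their direction and side of the threshold, 165 gained a call, 16 lost one and 6 turned. Uncalled genes that stayed uncalled are among the 1337. The 16 losses fell on the called genes Cxcl3 (8), Mfsd12 (3), Ccl4 (2), Il12b (2) and Ccl3 (1). The 12 called genes (11 lower, 1 higher) became 21 with DESeq2 (17 lower, 4 higher; not Mfsd12, which it gave no adjusted p), 7 in the model of all 6 libraries (7 lower, 0 higher) and 65 with no filter on low counts (41 lower, 24 higher). With the replicate number as a block they became 481 (286 lower, 195 higher), including all 12, on 1 residual degree of freedom and with infinite prior degrees of freedom, against 11.6. The deviations of same-numbered libraries correlated at 0.177 over all genes and 0.517 over genes of at least 50 CPM; with 2 pairs the numbers are not shown to pair the samples. With 1 library left out, in fits that assume the lone library varies like the other group, 21 to 111 genes were called, 19 to 67 lower and 2 to 44 higher. Higher genes numbered 0 against a fold change of 1.2 or at an adjusted p under 0.01, and 3 at 0.1. The cause of these shifts was not tested. With 1 library left out, 4 uncalled genes turned: Nqo1 ran from -0.36 to 0.28 (without LPS replicate 2), Tiparp from -0.18 to 0.13 (without LPS replicate 2; 0.07 without SGA360+LPS replicate 1), H2-K1 from -0.01 (without LPS replicate 1 or SGA360+LPS replicate 1) to 0.08, and Pf4 from -0.21 to 0.09 (without LPS replicate 1). A fit without Rn45s, chosen after seeing the data, called 12 genes. Between 7726973 and 9529817 counts per library and 2 libraries a group limit what could be called among genes of low level.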
